A study of Mus musculus with 4 samples.

Results

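Pou5f1, Nanog, Utf1, Dppa4, Pou3f1 and Pim2 are 6 genes of core and primed pluripotency, taken by name from the 27998 genes of the deposited table, of which 20359 had a count in the cells used here. They were followed in mouse cultures made to resemble neuromesodermal progenitors (NMPs), the caudal cells that feed both spinal cord and paraxial mesoderm. Epi-NMP cells were Epi-CE cells that had been replated for 2 days in N2B27 medium with 20 ng/ml FGF2 and 3 µM of the WNT agonist CHIR99021. Epi-CE-T cells came from a Bra:GFP reporter line, were handled as Epi-CE, and were sorted for GFP after 72 h. Epi-CE cells were epiblast stem cells (EpiSCs, derived by at least 4 passages in 12 ng/ml FGF2 and 25 ng/ml activin A) that later received 20 ng/ml FGF2 without activin A and then FGF2 with 3 µM CHIR99021. ES-NMP cells were embryonic stem cells given 2 days of N2B27 and then 24 h of 3 µM CHIR99021, with neither FGF2 nor activin A named. All 4 groups carry the strain label E14Tg2a, a male embryonic stem cell line. Each group is 1 droplet library, made after loading 8700 cells, so no difference below has a replicate check or a p-value, and library, line and condition cannot be told apart.

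POU5F1, also called OCT4, is the POU-domain transcription factor without which pluripotent cells are lost, and it binds DNA beside SOX2 at composite octamer and SOX sites. NANOG is a homeodomain factor that holds cells in the pluripotent state and falls as the epiblast moves toward the germ layers. UTF1 is a chromatin-associated protein whose gene is a known target of OCT4 and SOX2, and DPPA4 works with DPPA2 on chromatin at early embryonic genes. POU3F1, or OCT6, is the POU factor of the primed epiblast and of early neural cells. PIM2 is a serine/threonine kinase that promotes growth and survival. T (Brachyury), SOX2 and NKX1-2 mark NMPs and the caudal epiblast, where OCT4 is known to persist for a time in the embryo.

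The upstream sequences of Nanog, Pim2 and Pou5f1 are shown because they hold letters that POU factors or their partners are known to read. They are the 250 bases before the annotated start in RefSeq sequence of build GRCm38.p6, which listed a start for 4 of the 6 genes. Capitals mark matches to ATTTGCAT (the octamer), TTTGCAT (the octamer core, which lies inside the octamer), a composite (TTTGCAT, then any base, then ACAATG, which joins the octamer core to a SOX site) and AGGTCAAGG (an orphan nuclear receptor site), searched on both strands of 300 bases including 50 after the start.
Nanog upstream of start, chr6:122707239-122707488, plus strand: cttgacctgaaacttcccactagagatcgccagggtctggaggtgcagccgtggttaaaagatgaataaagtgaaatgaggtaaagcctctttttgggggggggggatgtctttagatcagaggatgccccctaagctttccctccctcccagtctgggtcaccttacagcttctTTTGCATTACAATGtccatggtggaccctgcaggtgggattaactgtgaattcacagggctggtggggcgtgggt
Pim2 upstream of start, chrX:7878056-7878305, plus strand: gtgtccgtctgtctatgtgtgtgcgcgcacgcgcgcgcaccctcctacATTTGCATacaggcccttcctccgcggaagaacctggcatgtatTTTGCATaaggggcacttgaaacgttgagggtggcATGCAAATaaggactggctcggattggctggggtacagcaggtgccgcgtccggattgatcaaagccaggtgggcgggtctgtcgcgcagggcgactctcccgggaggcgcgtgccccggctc
Pou5f1 upstream of start, chr17:35505782-35506031, plus strand: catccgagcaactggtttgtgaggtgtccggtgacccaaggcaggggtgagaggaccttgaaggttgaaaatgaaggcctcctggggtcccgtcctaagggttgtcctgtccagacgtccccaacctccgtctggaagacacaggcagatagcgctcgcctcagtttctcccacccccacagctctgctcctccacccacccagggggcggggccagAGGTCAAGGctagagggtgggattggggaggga
The Nanog stretch holds the composite as TTTGCATTACAATG, 75 to 62 bases before the start. Among 32851 such windows of 27025 genes the composite stood in 2, or 0.00609%, and both were windows of Nanog. Pim2 holds 3 octamer cores, at 201 to 195 and 158 to 152 bases before the start on the plus strand and at 123 to 117 on the minus strand, and the outer pair are whole octamers. An octamer core stood in 4.63% of all windows and an octamer in 1.74%, whereas 9 windows (0.0274%) held 3 or more cores. Pou5f1 holds AGGTCAAGG 33 to 25 bases before its start, a match found in 0.310% of windows. The Utf1 window held no match to these letters, and promoters of Pou3f1 and Dppa4 were not used here. These are matches of letters and say nothing about binding in these cells.

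The 6 loci are all protein-coding genes on the plus strand of GRCm38 (mm10), with positions from GENCODE M21. Pou5f1 lies at chr17:35506018-35510772, Nanog at chr6:122707489-122714633 and Utf1 at chr7:139943789-139945112. Dppa4 lies at chr16:48283733-48294237, Pou3f1 at chr4:124656807-124660655 and Pim2 at chrX:7878262-7883432. For Pou5f1 and Pim2 these starts fall inside the upstream stretches shown above. The distances given there count from the RefSeq starts and would be shorter from these.

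Cells were those marked TRUE in the deposited cell table, 1111 in Epi-NMP, 2109 in Epi-CE-T, 2386 in Epi-CE and 3116 in ES-NMP, with 22261452, 44990488, 58663735 and 71563029 counts of unique molecular identifiers (UMIs) in that order. The TRUE mark keeps 42.3% of Epi-NMP barcodes against 94.8% to 96.8% in the other libraries. Median UMIs per cell ran from 19189 to 22613.5. Of 8722 barcodes, 84 had a sequence that also occurs in another library. Checks of the labels gave 2 points to hold beside every comparison. First, T RNA was not higher in the library sorted for the T reporter: it was at 382 counts per 1000000 (CPM) in Epi-CE-T and 430.5 CPM in Epi-CE, and 25.1% of Epi-CE-T cells had no T UMI at equal depth. Nkx1-2 was at 12.6 CPM in Epi-CE-T and 182 CPM in Epi-CE, and reporter line and sort cannot be told apart. Second, Hprt, which E14Tg2a cells are known to lack in working form and which was chosen after its values were seen, was at 0.943 CPM in Epi-NMP, 138 CPM in Epi-CE-T, 0.801 CPM in Epi-CE and 204 CPM in ES-NMP. The Hprt levels therefore set Epi-CE-T and ES-NMP apart from Epi-NMP and Epi-CE, and among the comparisons made here only Epi-NMP over Epi-CE lies within 1 side of that split. Its part in the results was not tested.

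Pou5f1 was high in Epi-CE and ES-NMP and low in the other libraries. Summed over cells, it was at 9.79 CPM in Epi-NMP (95% Poisson interval 8.54 to 11.2), 64.7 CPM in Epi-CE-T (62.4 to 67.1), 426 CPM in Epi-CE (421 to 431) and 458 CPM in ES-NMP (453 to 463). All intervals in this section cover counting error only. Epi-CE and ES-NMP thus lay close together, while Epi-CE-T and Epi-NMP stood far below both. When every cell was thinned at random to 8000 UMIs, Pou5f1 was detected in 4.50% of Epi-NMP cells, 16.5% of Epi-CE-T cells, 86.2% of Epi-CE cells and 78.4% of ES-NMP cells. The shares of Epi-CE and ES-NMP run against their levels, so no order is read from them. Without thinning the shares were 7.65%, 25.3%, 93.9% and 86.9% in the same order of libraries. The median cell had 3 Pou5f1 UMIs in Epi-CE and in ES-NMP and 0 in the other libraries, although the highest thinned cell had 12 UMIs in Epi-NMP, 8 in Epi-CE-T, 17 in Epi-CE and 18 in ES-NMP.

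Nanog followed the same order of libraries with a wider gap between Epi-CE and ES-NMP. It was at 0.270 CPM in Epi-NMP, from 6 UMIs (0.0989 to 0.587), 8.49 CPM in Epi-CE-T (7.66 to 9.39), 14.5 CPM in Epi-CE (13.5 to 15.5) and 58.2 CPM in ES-NMP (56.4 to 60.0). At equal depth 0.270%, 3.94%, 8.47% and 26.8% of cells had a Nanog UMI. Even in ES-NMP, then, most cells had none, and 4.49% had 3 or more. Counts of a gene in fewer cells and lower counts in each cell cannot be separated in summed levels, which is why both are given.

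Utf1 was at 0.719 CPM in Epi-NMP (0.411 to 1.17, from 16 UMIs), 17.1 CPM in Epi-CE-T (15.9 to 18.4), 50.9 CPM in Epi-CE (49.1 to 52.7) and 137 CPM in ES-NMP (134 to 139.7). A Utf1 UMI was present in 0.270%, 5.22%, 23.5% and 37.6% of thinned cells. Dppa4 was at 4.27 CPM in Epi-NMP (3.45 to 5.22), 1.22 CPM in Epi-CE-T (0.921 to 1.59), 6.73 CPM in Epi-CE (6.09 to 7.43) and 57.1 CPM in ES-NMP (55.4 to 58.9). ES-NMP was therefore far above the other libraries, and Dppa4 was the only member at a lower level in Epi-CE-T than in Epi-NMP. Dppa4 was detected in 3.33%, 0.711%, 4.19% and 28.5% of thinned cells.

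Pou3f1, the primed factor, had a different order, with Epi-CE highest. It was at 5.17 CPM in Epi-NMP (4.26 to 6.20), 12.0 CPM in Epi-CE-T (11.0 to 13.0), 36.2 CPM in Epi-CE (34.7 to 37.8) and 8.86 CPM in ES-NMP (8.18 to 9.58). A Pou3f1 UMI was in 2.70%, 5.07%, 19.7% and 5.42% of thinned cells in that order of libraries. Pim2 was at 5.62 CPM in Epi-NMP (4.67 to 6.69), 37.4 CPM in Epi-CE-T (35.6 to 39.2), 91.7 CPM in Epi-CE (89.3 to 94.2) and 113 CPM in ES-NMP (110.5 to 115), with 4.14%, 14.0%, 29.2% and 38.5% of cells detected. For each of the 6 genes, no neighbours in the order of the 4 libraries had overlapping counting intervals.

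**Figure D1:**
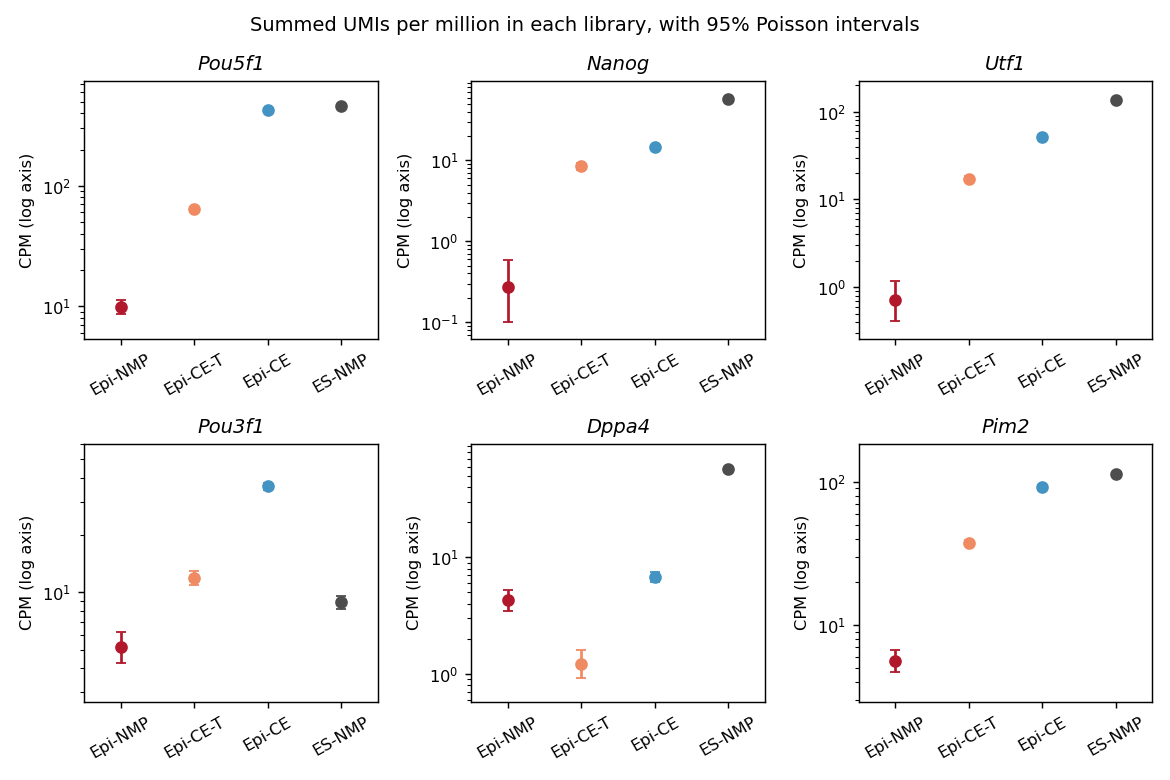
Summed UMIs per 1000000 (CPM, log axis, own range per gene) in Epi-NMP, Epi-CE-T, Epi-CE and ES-NMP, 1 library each, with 95% Poisson intervals as bars. Pou5f1 is at 9.79 in Epi-NMP and at 458 in ES-NMP, and Pou3f1 is the gene with its peak, 36.2, in Epi-CE.

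The spread over cells differed between members. Among Epi-CE, Epi-CE-T and ES-NMP, Pou5f1 varied least for its mean in Epi-CE. Its variance over mean at equal depth was 1.94 there, against 2.90 in Epi-CE-T and 2.82 in ES-NMP. In Epi-NMP it was 3.31, but 1 cell held 12 of the 80 thinned UMIs, so that value is not ranked. In Epi-CE 56.9% of cells had 3 or more Pou5f1 UMIs and in ES-NMP 54.5%, while 13.8% of Epi-CE cells and 21.6% of ES-NMP cells had none. Pim2 in Epi-CE was uneven: 70.8% of cells had none and 9.05% had 3 or more, with a variance over mean of 3.14. The 10% of Epi-CE-T cells with the most Pou5f1 held 81.9% of its UMIs in that library, against 25.6% in Epi-CE and 27.8% in ES-NMP. This share depends on how many cells have the gene at all, 16.5% in Epi-CE-T. In Epi-NMP, where 4.50% of cells had it, the share could only be 100%.

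**Figure D2:**
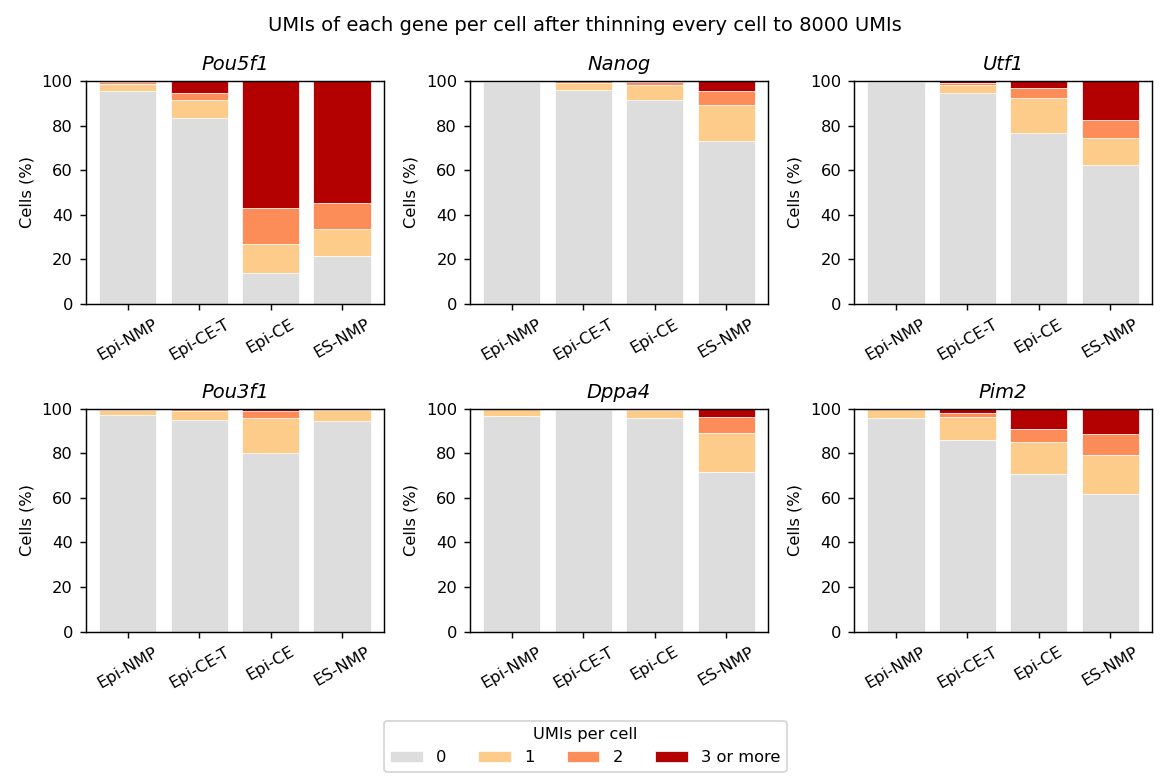
Share of cells (percent) with 0, 1, 2 or 3 or more UMIs of each gene after thinning every cell to 8000 UMIs, in the 4 libraries. For Pou5f1 the top class holds 56.9% of Epi-CE cells and 54.5% of ES-NMP cells, and for Nanog the class with 0 UMIs holds the majority everywhere.

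All 6 members together were detected in 4 cells of ES-NMP and in no cell of the other libraries. Cells with none of the 6 made up 86.0% of Epi-NMP, 70.0% of Epi-CE-T, 9.81% of Epi-CE and 14.7% of ES-NMP. Cells with 4 or 5 members numbered 503 and 143 in ES-NMP. In Epi-CE those numbers were 136 and 14, in Epi-CE-T 20 and 0, and in Epi-NMP 0 and 0.

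In Epi-NMP the remaining Pou5f1 sat in few cells. Only 5 cells had 10 or more Pou5f1 UMIs before thinning, and they held 79 of the 218 Pou5f1 UMIs, 11 of the 16 Utf1 UMIs and 20 of the 125 Pim2 UMIs but 0 of the 6 Nanog UMIs. Of these 5 cells 4 had Utf1. Without the pair of cells richest in each gene, Pou5f1 was at 7.73 CPM, Pou3f1 at 3.64 CPM and Utf1 at 0.314 CPM, so the Utf1 level there rests on those cells. The background was read in cells that should lack Pou5f1. In Epi-NMP cells with 5 or more UMIs of 8 neural markers, 1 of 90 had it, or 1.11% (0.0281% to 6.04%, median 19878 UMIs before thinning). The library share of 4.50% (3.36% to 5.89%, median 19252 UMIs) lay within that interval. With 1 detection in 90 cells, which are themselves part of the library, that share could not be told from background. This concerns the share of cells only and not the 5 cells above, of which the richest had 30 Pou5f1 UMIs before thinning. Pim2 was in 7.78% of the 90 cells (3.18% to 15.4%), and its library share of 4.14% was likewise within the interval. For Nanog, Utf1, Pou3f1 and Dppa4 the 90 cells are too few to give a background, since 0 detections would still allow a share of 3.33%.

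Epi-CE set beside ES-NMP asks how the EpiSC-derived caudal epiblast differs from the ESC-derived product. Pou3f1 was higher in Epi-CE and Dppa4, Nanog and Utf1 were lower, while Pou5f1 and Pim2 differed by less than 1.5-fold. Pou3f1 was at 36.2 CPM in Epi-CE and 8.86 CPM in ES-NMP, 4.08-fold higher (3.74 to 4.47). Dppa4 was 8.48-fold lower (7.65 to 9.43), Nanog 4.02-fold lower (3.74 to 4.34) and Utf1 2.69-fold lower (2.58 to 2.81). Pou5f1 was 1.08-fold lower (1.06 to 1.09) and Pim2 1.23-fold lower (1.19 to 1.27). Of the 6 members 1 was at least 1.5-fold higher, against 21.1% of 13553 genes with 50 or more UMIs over both libraries, and 3 were lower, against 16.2%, or 37.3% in either direction. The member median was -0.86 on the log2 ratio scale, beside 0.03 for all genes.

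These whole-library differences moved with the naive pluripotency markers in ES-NMP. The 11 markers (among them Zfp42, Tdh, Dppa5a, Esrrb and Klf2, with no member gene) summed to a mean of 0.512 UMIs per thinned cell in Epi-CE, where 9 of the 11 were detected, and 13.9 in ES-NMP, where 11 were. Cells with 5 or more naive marker UMIs numbered 0 in Epi-NMP and Epi-CE-T, 3 in Epi-CE and 1043 in ES-NMP. A further 507 ES-NMP cells had 2 to 4 of these UMIs and 1566 had 0 or 1. Of the ES-NMP totals at equal depth, the 1043 cells held 85.6% of Utf1, 77.4% of Nanog, 76.9% of Dppa4, 53.6% of Pou5f1, 41.6% of Pim2 and 22.5% of Pou3f1. Nanog was detected in 56.4% of these cells, 19.3% of the middle range and 9.45% of the low range, and Utf1 in 83.1%, 22.3% and 12.2%. Dppa4 had the same order (60.1%, 21.7% and 9.64%), and Pou5f1 was in 98.8%, 79.9% and 64.3% of cells. Pou3f1 was in 2.97%, 6.90% and 6.58% of cells, so its lowest share was where Pou5f1, Nanog, Utf1 and Dppa4 had their highest. Pim2 was in 44.8%, 47.3% and 31.5%.

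**Figure D3:**
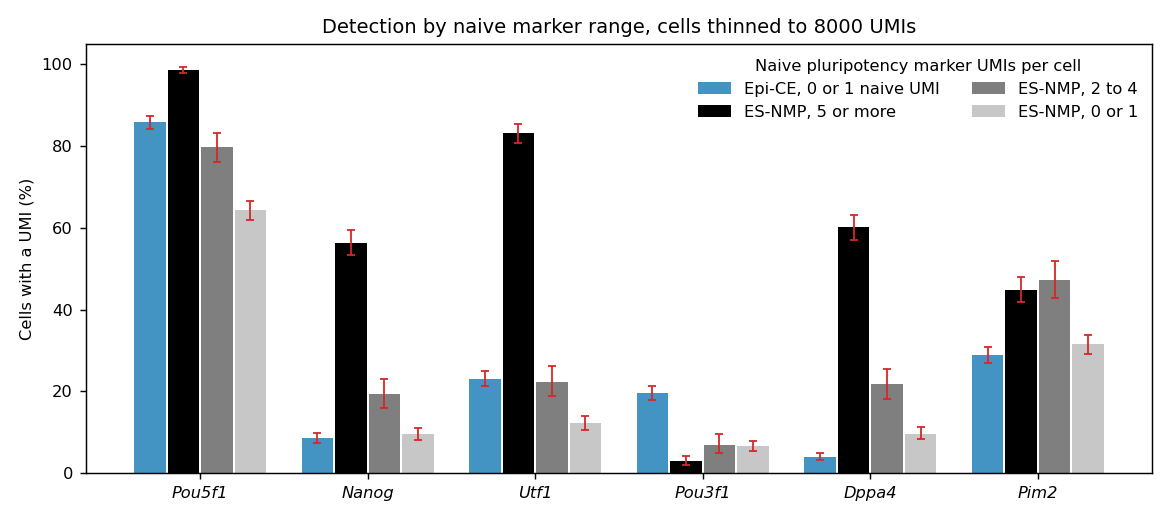
Share of cells with a UMI of each gene (percent, cells thinned to 8000 UMIs) in Epi-CE cells with 0 or 1 naive pluripotency marker UMI and in ES-NMP cells of 3 ranges of those markers, with exact 95% binomial intervals. Utf1 is in 83.1% of ES-NMP cells with 5 or more marker UMIs and 12.2% of those with 0 or 1, and Pou3f1 is in 19.5% of the Epi-CE cells shown.

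With only the cells of 0 or 1 naive marker UMI, a comparison added after the data had been seen, 3 directions turned in mean UMIs per cell. Pou5f1 was 1.48-fold higher in Epi-CE (1.42 to 1.54), at 3.23 UMIs per thinned cell against 2.19 in ES-NMP. Utf1 was 2.06-fold higher (1.78 to 2.38) and Pim2 1.10-fold higher (1.01 to 1.19), where the whole libraries had both lower. The share of cells with a Pim2 UMI did not turn, at 28.8% in Epi-CE and 31.5% in ES-NMP. Its small difference in mean is therefore not read as a direction. Nanog was 1.03-fold lower with an interval of 0.848 to 1.26 that holds 1. Pou3f1 stayed 3.26-fold higher (2.68 to 4.00) and Dppa4 2.60-fold lower (2.02 to 3.37).

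Within ES-NMP, members also differed with 10 posterior Hox genes, which are known to mark position along the body axis. In the 453 cells with 5 or more Hox UMIs, Pou5f1 was detected in 54.3%, Nanog in 3.09%, Utf1 in 5.30%, Dppa4 in 5.08% and Pim2 in 16.8%. In the 2265 cells with 0 or 1, the shares were 84.7%, 34.8%, 49.1%, 36.4% and 44.9%. Pou3f1 was in 4.64% of the Hox-high cells and 5.74% of the Hox-low cells, with intervals that overlap. Pou5f1 was thus still detected in most Hox-high cells of ES-NMP, while each other member was in a smaller share of them. Its mean was nonetheless lower, 1.12 UMIs per thinned cell in Hox-high and 4.32 in Hox-low cells, beside 0.216 and 1.04 for Pim2. Pou5f1 had the highest mean of the members in both ranges, so the shares do not rank how far each gene fell. As a background, 39 ES-NMP cells with 5 or more neural marker UMIs had Nanog in 2.56% (0.0649% to 13.5%) and Pou5f1 in 15.4% (5.86% to 30.5%). Among the 453 Epi-NMP cells with 5 or more Hox UMIs, 3.75% had Pou5f1.

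In Epi-CE, 231 cells had 5 or more UMIs of 7 paraxial mesoderm markers such as Tbx6 and Msgn1. Pou5f1 was in 82.7% of them and in 86.1% of the 1614 cells with 0 or 1 marker UMI, with overlapping intervals. Nanog was in 0.866% against 10.0%, Utf1 in 9.96% against 28.5%, Pou3f1 in 11.3% against 21.7% and Pim2 in 8.66% against 35.2%. Dppa4 was in 2.60% against 4.28%, with overlapping intervals, so 4 members had lower shares in these cells beyond counting error. In the 71 Epi-CE cells with 5 or more node and notochord marker UMIs, Pou5f1 was in 66.2% (54.0% to 77.0%), against 89.3% of the 1967 with 0 or 1.

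Epi-NMP over ES-NMP set the products that both routes call NMPs side by side, and every member was lower in Epi-NMP. Nanog was at 0.270 CPM in Epi-NMP, against 58.2 CPM in ES-NMP, 216-fold lower (99.1 to 588). Utf1 was 191-fold lower (117 to 334), and 124-fold over all barcodes. Pou5f1 was 46.8-fold lower (41.0 to 53.7), Pim2 20.1-fold (16.9 to 24.2) and Dppa4 13.4-fold (10.9 to 16.6). Pou3f1 was 1.71-fold lower (1.40 to 2.11). All 6 passed 1.5-fold downward, against 18.4% of 12949 genes (34.5% in either direction), and 4 of them were at least 16-fold lower, against 2.19%. The member median log2 ratio was -4.94, beside 0.02 for all genes.

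Among only those cells that had a T UMI, Pou5f1 was 66.8-fold lower in Epi-NMP (47.5 to 97.2), at 0.0561 UMIs per thinned cell against 3.75 in ES-NMP. Nanog and Utf1 had 0 UMIs in these 588 Epi-NMP cells, against 333 and 602 UMIs in 1026 ES-NMP cells, so they were at least 63.6-fold and at least 115-fold lower with a floor of 3 counts per group. In cells with T the gap in Pou5f1 between the libraries was thus no smaller than over all cells.

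Replating Epi-CE for 2 days gave Epi-NMP, and all members were lower after it. This comparison shares the Epi-NMP library with the previous one and the Epi-CE library with the next. Utf1 was at 0.719 CPM in Epi-NMP and 50.9 CPM in Epi-CE, 70.8-fold lower (43.5 to 124), and Nanog was 53.6-fold lower (24.5 to 147). Pou5f1 was 43.5-fold lower (38.1 to 49.95), Pim2 16.3-fold (13.7 to 19.7) and Pou3f1 7.01-fold (5.80 to 8.53). Dppa4 differed least, 1.58-fold lower (1.26 to 2.00), and among cells with 0 or 1 naive marker UMI its 1.28-fold difference had an interval of 0.873 to 1.92 that holds 1. Passing 1.5-fold downward were 6 of 6 members, against 22.7% of 12628 genes (37.6% in either direction), and 4 passed 16-fold, against 0.824%. The count past 1.5-fold was 5 with cells thinned to 8000 UMIs, where Dppa4 was 1.32-fold lower, and 5 with the top and bottom 10% of cells by UMIs left out, where it was 1.49-fold lower. Pim2 lay near the 16-fold line and fell below it in some settings. It was 15.6-fold lower with cells thinned to 8000 UMIs and 15.9-fold lower by the mean of CPM taken per cell. The member median log2 ratio was -4.74, beside -0.01 for all genes.

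The sorted Epi-CE-T cells also had less of every member than unsorted Epi-CE. Pou5f1 was at 64.7 CPM in Epi-CE-T and 426 CPM in Epi-CE, 6.59-fold lower (6.34 to 6.85). Dppa4 was 5.51-fold lower (4.15 to 7.44), Pou3f1 3.03-fold (2.75 to 3.33) and Utf1 2.97-fold (2.74 to 3.22). Pim2 was 2.45-fold lower (2.32 to 2.59) and Nanog 1.70-fold (1.51 to 1.93). All 6 passed 1.5-fold downward, against 13.1% of 13119 genes (31.3% in either direction), with a median log2 ratio of -1.58 beside 0.04 for all genes.

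Cells with T were also compared directly between the sorted and the unsorted library. Among cells with a T UMI, Pou5f1 was at 0.166 UMIs per thinned cell in 1579 Epi-CE-T cells and 3.21 in 1893 Epi-CE cells, 19.3-fold lower (17.1 to 22.0). With 3 or more T UMIs it was 29.6-fold lower (24.6 to 36.0). Nkx1-2 was 67.2-fold lower in the same cells with a T UMI (48.2 to 96.7), Utf1 10.0-fold and Pou3f1 7.70-fold. Nanog was 4.11-fold and Pim2 3.56-fold lower. Over all cells at the same depth of 8000 UMIs, Pou5f1 was 9.18-fold, Pou3f1 3.97-fold, Utf1 3.80-fold, Pim2 3.00-fold and Nanog 2.18-fold lower. At equal depth the gap was thus larger among T-positive cells for these members, though only slightly for Pim2. Node and notochord markers moved with this comparison: the 6 markers, all detected in both libraries, summed to 2.16 UMIs per thinned cell in Epi-CE-T and 0.746 in Epi-CE, and their part in the result was not tested. Pou5f1 was in 7.30% of the 274 Epi-CE-T cells with 5 or more such UMIs and in 27.8% of the 942 with 0 or 1. The Epi-CE shares in these ranges, given above, were 66.2% and 89.3%.

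Depth moved with Pou5f1 inside Epi-CE-T. Cells above the median UMI count of that library had 91.2 CPM of Pou5f1 and 286 CPM of T, and cells at or below it had 14.2 CPM of Pou5f1 and 566 CPM of T. In Epi-CE the deeper cells had 447 CPM of Pou5f1 and the shallower 389.9, in ES-NMP 498 and 394, and in Epi-NMP 10.9 and 7.74. With the top and bottom 10% of cells by UMIs left out, Pou5f1 was 10.2-fold, Utf1 5.83-fold and Pou3f1 5.06-fold lower in Epi-CE-T than in Epi-CE.

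Co-detection with T had 3 patterns. In Epi-CE-T, T was less often found in cells with Pou5f1 than in cells without it, 42.5% of 348 against 81.3% of 1761, a difference of -38.7 percentage points (-44.1 to -33.2). In ES-NMP it was more often found with Pou5f1, 35.2% of 2442 against 24.8% of 674, a difference of 10.4 points (6.52 to 14.1). In Epi-CE the shares were 79.9% of 2056 and 76.1% of 330, and the 3.80-point difference has an interval of -0.842 to 8.97. In Epi-NMP they were 56% of 50 and 52.8% of 1061, a difference of 3.22 points (-10.8 to 16.4). Cells with both T and Pou5f1 made up 2.52% of Epi-NMP, 7.02% of Epi-CE-T, 68.8% of Epi-CE and 27.6% of ES-NMP.

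Sox2 shares at 8000 UMIs differed between cells with and without Pou5f1 by no more than counting error in the 4 libraries. The Sox2 shares in Pou5f1-positive and Pou5f1-negative cells were 42% and 43.6% in Epi-NMP, and 26.4% and 24.0% in Epi-CE-T. In Epi-CE they were 19.5% and 19.7%, and in ES-NMP 34.4% and 30.6%. The 4 differences ran from -1.64 to 3.88 points, and each interval held 0. In ES-NMP this depended on depth: at 4000 UMIs the difference was 3.73 points (0.623 to 6.70), and in the shallower cells of that library 7.22 (1.91 to 12.2). Unthinned, the Epi-CE-T difference was 19.7 points (14.8 to 24.4). The widest, in Epi-NMP, spans -14.6 to 12.4 points, so a sizeable difference there is not detectable with 50 positive cells.

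At 8000 UMIs Nkx1-2 was more often found in Pou5f1-positive cells in every library, beyond counting error at all depths tried in Epi-CE and Epi-CE-T alone. In Epi-NMP it was in 58% of positive and 34.0% of negative cells, a difference of 24.0 points (9.91 to 36.9). In Epi-CE-T it was in 23.0% and 1.76%, a difference of 21.2 points (17.1 to 26.0). In Epi-CE the shares were 67.0% and 33.3%, a difference of 33.7 points (28.0 to 39.0), and in ES-NMP 53.4% and 44.7%, a difference of 8.70 points (4.44 to 12.9). At 4000 UMIs per cell the ES-NMP difference was 0.852 points with an interval of -2.78 to 4.41, and that of Epi-NMP was 9.93 points (-3.60 to 27.4), so both calls depend on depth. In the shallower cells of Epi-NMP the difference was 10.4 points (-7.01 to 30.8). Read the other way, 72.1% of the 111 Epi-CE-T cells with Nkx1-2 had Pou5f1, against 13.4% of those without.

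**Figure D4:**
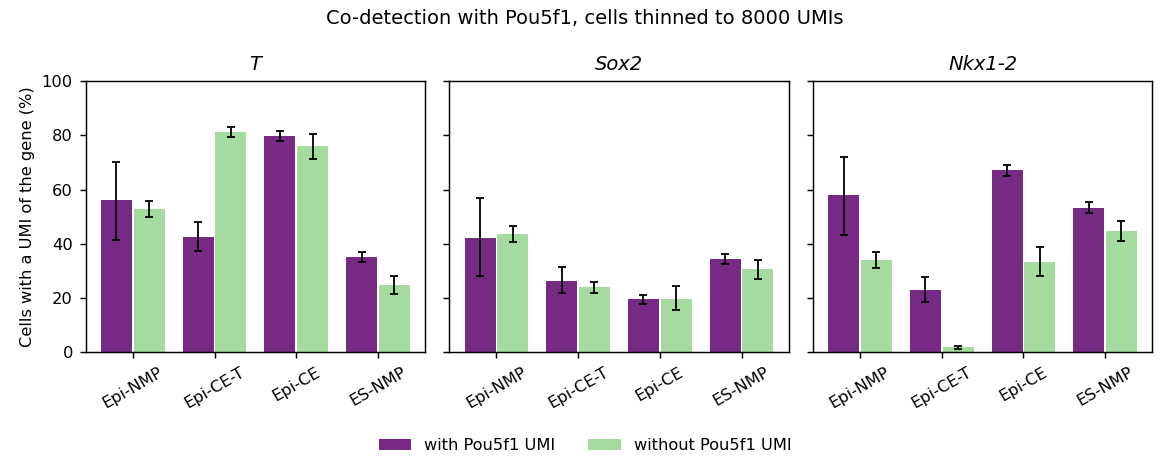
Share of cells with a T, Sox2 or Nkx1-2 UMI (percent) among cells with and without a Pou5f1 UMI in each library, thinned to 8000 UMIs, with exact 95% binomial intervals. T is in 42.5% of Pou5f1-positive and 81.3% of Pou5f1-negative Epi-CE-T cells, and the Nkx1-2 share is higher in Pou5f1-positive cells of all 4 libraries at this depth.

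The ES-NMP shares mix naive and non-naive cells, and among ES-NMP cells with 0 or 1 naive marker UMI all 3 partners stood apart. T was in 44.3% of Pou5f1-positive and 25.6% of Pou5f1-negative cells, a difference of 18.7 points (13.9 to 23.3). Nkx1-2 was in 72.7% and 44.5%, a difference of 28.1 points (23.1 to 33.0). Sox2 was in 18.0% and 31.1%, a difference of -13.2 points (-17.7 to -8.69), where the whole library had 3.88 (-0.159 to 7.74). Sox2 was in 58.2% of the naive-high cells of ES-NMP and 22.7% of its naive-low cells.

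Mean Pou5f1 was lower at each step of T in Epi-CE-T. In its cells with 0, 1, 2 and 3 or more T UMIs it was 0.934, 0.455, 0.187 and 0.103 UMIs per thinned cell. In Epi-CE the means were 3.63, 3.48, 3.61 and 3.04. There too the last (2.95 to 3.14) lay below the first (3.47 to 3.81), by a smaller factor than in Epi-CE-T. In ES-NMP the means were 3.46, 3.91, 3.72 and 3.56, and in Epi-NMP 0.0899, 0.0710, 0.0787 and 0.0424. In Epi-CE-T the first step of Nkx1-2 went with more Pou5f1, 0.273 at 0 UMIs and 1.93 at 1 UMI. The same step also went with more in Epi-CE (2.70 and 3.56) and in Epi-NMP (0.0416 and 0.129). ES-NMP had no such rise, although Nkx1-2 was in a larger share of its Pou5f1-positive cells. Its means at 0, 1, 2 and 3 or more Nkx1-2 UMIs were 3.63, 3.76, 3.39 and 3.16. The T difference in Epi-CE-T was -40.8 points (-46.9 to -34.1) in the deeper cells and -11.5 (-22.0 to -3.17) in the shallower, a division added after the data had been seen.

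**Figure D5:**
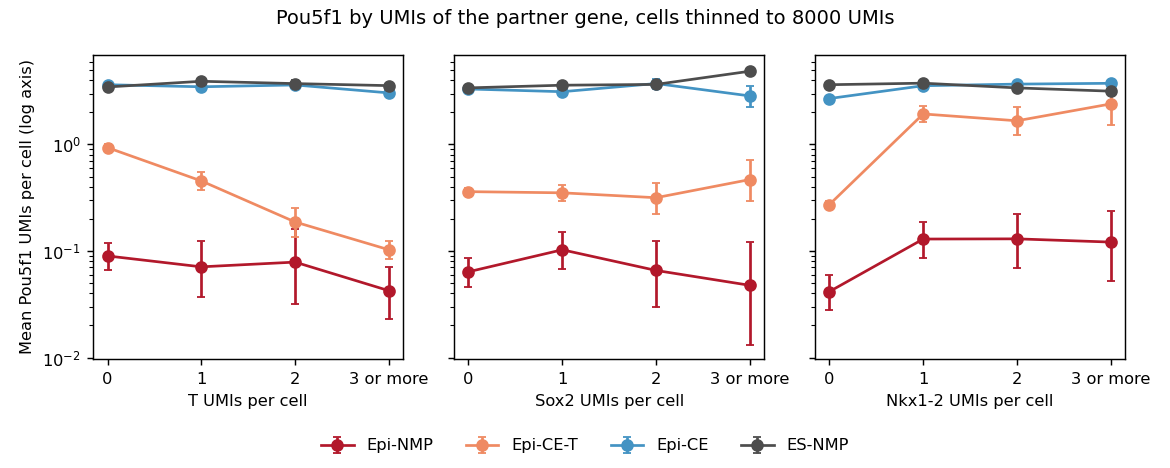
Mean Pou5f1 UMIs per cell (log axis, cells thinned to 8000 UMIs) in cells with 0, 1, 2 or 3 or more UMIs of T, Sox2 or Nkx1-2, 1 line per library, with 95% Poisson intervals. In Epi-CE-T the mean is 0.934 at 0 T UMIs and 0.103 at 3 or more, while in Epi-CE it is 3.63 and 3.04.

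Cells with T, Sox2 and Nkx1-2 together are those closest to the usual NMP definition. Pou5f1 was in 5 of 89 such cells of Epi-NMP, or 5.62% (1.85% to 12.6%), in 4 of 7 of Epi-CE-T, in 91.2% of 250 of Epi-CE (87.0% to 94.4%) and in 75.4% of 142 of ES-NMP (67.4% to 82.2%). Nanog was in 0%, 42.9%, 9.20% and 13.4% of them, where 0 of 89 allows a share of up to 3.37%. Pou3f1 was in 4.49%, 14.3%, 19.2% and 7.75%, each of the Epi-CE-T values resting on 7 cells. Pim2 in Epi-CE went with the absence of T: it was in 50.5% of the 388 cells with neither T nor Sox2, against 23.7% of the 1533 with T and no Sox2.

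Members were also co-detected with each other. Utf1 was in 25.9% of Pou5f1-positive and 1.14% of Pou5f1-negative Epi-CE-T cells, in 25.9% and 8.18% of Epi-CE cells and in 45.9% and 7.42% of ES-NMP cells. Pim2 was in 29.6% and 10.9% in Epi-CE-T, in 32.1% and 11.5% in Epi-CE and in 46.2% and 10.7% in ES-NMP. Nanog in ES-NMP was in 33.0% of positive and 4.15% of negative cells. Pou3f1 was in 21.2% and 10.6% in Epi-CE, but in 5.36% and 5.64% in ES-NMP, where the difference of -0.274 points (-2.44 to 1.51) holds 0. Dppa4 in Epi-CE was in 4.23% and 3.94%, a difference of 0.292 points (-2.50 to 2.18), against 33.8% and 9.35% in ES-NMP.

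Across cells, the genes closest to Pou5f1 by Pearson correlation of log2(1 + thinned UMIs) differed between libraries in part, with some repeated. The cells of a library share that library and the depth of 8000 UMIs, and no p is given. Members aside, in ES-NMP (3116 cells) they were Chchd10 (0.503), Dppa5a (0.489), Tdh (0.437), Mt2 (0.430) and Apoe (0.421), of which Dppa5a and Tdh are in the naive list. In Epi-CE (2386 cells) they were Fst (0.334), which encodes the activin-binding protein follistatin, Ddit4 (0.315), the glycolytic enzyme gene Eno1 (0.286), Fdps (0.272) and Bcat1 (0.265). In Epi-CE-T (2109 cells) they were Stmn2 (0.444), the carbonic anhydrase gene Car2 (0.408), Eif5a (0.338), Apela (0.338) and Rbpms2 (0.335), and T had the second-lowest value of 6497 genes, -0.346. In Epi-CE-T Utf1 had 0.424, and Nkx1-2, with a mean below 0.1 UMI and so not ranked, had 0.367. T in Epi-CE had -0.104, rank 6208 of 6320 genes from the highest. Nkx1-2 in ES-NMP had -0.0129. In Epi-NMP (1111 cells, 50 of them with a Pou5f1 UMI) the closest were Fst (0.328), Stmn2 (0.183), Car2 (0.163), Cxx1a (0.151) and Cxx1b (0.150). Fst thus led in both Epi-CE and Epi-NMP, and Stmn2 and Car2 were among the closest in both Epi-CE-T and Epi-NMP. The Epi-NMP values rest on 80 thinned Pou5f1 UMIs, 12 of them in 1 cell, so a few cells can carry them.

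Over the 4 libraries, likeness was taken as the root mean square distance of centred log2(CPM + 1) among 3372 genes. The closest to Pou5f1 were Tdgf1 (0.462), L1td1 (0.624) and Sfn (0.641). Tdgf1 and Lefty1 belong to NODAL signalling. L1td1 was also closest to Nanog (0.209), Lefty1 to Utf1 (0.217), Ina to Dppa4 (0.322) and Chchd10 to Pim2 (0.203). Fah (0.112), Bcam (0.165) and Trib3 (0.246) were closest to Pou3f1. With 4 points each, these distances only describe shape.

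A list of 22 further pluripotency network genes, chosen with earlier results of these data known, gave wider context. In Epi-CE over ES-NMP 11 of 21 measured were at least 1.5-fold lower and 1 higher (median log2 ratio -0.81), against the 16.2% and 21.1% of all genes given above. Dppa2, the partner gene of Dppa4, was 65.3-fold lower and the TGF-beta family ligand gene Gdf3 18.4-fold, whereas Fgf5, a primed epiblast growth factor gene, was 3.71-fold higher. In Epi-NMP over ES-NMP 14 of 21 were lower and 0 higher (median -2.25), against 18.4% and 16% of all genes. Tdgf1, the NODAL co-receptor gene, had 0 UMIs in Epi-NMP and was at least 448-fold lower, Gdf3 was at least 356-fold lower, and Dppa2 was 248-fold lower on 3 UMIs (84.6 to 1202).

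In Epi-NMP over Epi-CE 13 of 20 were lower (median -1.63) and 1, Sox2, was 3.19-fold higher, against 22.7% and 14.9% of all genes. Fgf5 was 14.2-fold lower there and Tdgf1 at least 256-fold. In Epi-CE-T over Epi-CE 13 of 20 were lower and 4 higher (median -1.18), against 13.1% and 18.1% of all genes. Fgf4 had 0 UMIs in Epi-CE-T and was at least 55.7-fold lower, and Tdgf1 was 13.4-fold lower. The higher ones were Spp1, the osteopontin gene, at 5.49-fold, Tcf7l1 at 1.92-fold, Otx2 at 1.76-fold and Sox2 at 1.56-fold. Genes with 0 UMIs in 1 library enter these medians at their bound.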

How the data were processed

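The data were UMI counts in whole numbers, 1 value for each gene in each cell, deposited by the authors before any normalization, with a cell table that gives each barcode its library and a TRUE or FALSE mark. Cell Ranger 1.3.1 and Seurat 2.0 with build mm10 were used, per the submitters' processing notes. The annotation, the treatment of multi-mapping reads, the use of strand and the meaning of the mark are not given in the sources used here, so reads from near-identical copies of Pou5f1 or Nanog could be split or lost. On the files, no TRUE barcode had fewer than 8011 UMIs or 2501 genes. TRUE barcodes were used, and no doublet caller was run.

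Counts were summed per library and divided by its total of gene counts (CPM). Ratios have exact conditional binomial intervals, levels exact Poisson, shares Clopper-Pearson and differences of shares Newcombe intervals, all at 95%. A gene counted as past 1.5-fold when it had at least 50 UMIs over both libraries, and 0 counts were set to a floor of 3 counts. Cells were thinned without replacement to 8000 UMIs. Marker ranges were 5 or more, 2 to 4, and 0 or 1 UMIs. The interval and ratio code was tested on simulated data. The named genes were the 6 members, T, Sox2 and Nkx1-2 in every library, list members with the largest ratios, the 3 genes most alike each member over libraries (50 CPM or more in 1 library, pseudocount 1) and the 5 most correlated with Pou5f1 over cells (mean of at least 0.1 UMI), without ribosomal, mitochondrial and predicted genes. Hprt was added after its values were seen, and list members called higher were named in full. Members and lists were chosen with earlier results of these data known. Alternatives were other scalings (edgeR 4.0.16, DESeq2 1.42.0), cell sets, weights and depths. Python 3.11.15, SciPy 1.17.1 and R 4.3.3 were used.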

Additional observations from a re-analysis of the deposited data

How the results depend on the processing

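The count of members past 1.5-fold was unchanged in all but 2 of 32 values, both for Epi-NMP over Epi-CE, where it was 5 in place of 6 because Dppa4 was 1.32-fold lower with cells thinned to 8000 UMIs and 1.49-fold lower with the top and bottom 10% of cells by UMIs left out. None of 192 member ratios changed sign, while 28 moved by more than their counting interval. Utf1 in Epi-NMP was 123.7-fold lower than in ES-NMP and 46.3-fold lower than in Epi-CE over all barcodes, and 373-fold and 123.5-fold lower with the top and bottom 10% of cells by UMIs left out. Scalings moved the median of all genes by at most 0.0709 on the log2 scale. Of 60 co-detection values 42 stayed and 18 moved, mostly with depth, and 8, in intervals that held 0, changed sign. The T difference at 4000 UMIs, unthinned, and over all barcodes at 4000 UMIs was 6.35, 25.5 and 5.90 points in ES-NMP and -2.14, 9.79 and -1.49 points in Epi-CE. The Nkx1-2 difference in that order was 0.852, 28.2 and 1.12 points in ES-NMP, 15.4, 58.4 and 14.8 in Epi-CE, and 14.3, 36.5 and 14.1 in Epi-CE-T. In Epi-NMP the Nkx1-2 difference at 4000 UMIs was 9.93 (-3.60 to 27.4), and in ES-NMP that of Sox2 was 3.73 (0.623 to 6.70), or 3.42 (0.396 to 6.32) over all barcodes. Unthinned, T in Epi-CE was 9.79 (3.87 to 17.2), T in Epi-CE-T was -25.7, Sox2 in ES-NMP -2.04 and Sox2 in Epi-CE-T 19.7 points, and unthinned values carry the difference in depth between cells. No paired analysis was possible because each group has 1 library, and for the same reason no replicate could be left out.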

Other observations

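Pou2f1 and Pou3f2, 2 other POU genes, did not share the order of Pou5f1. Pou4f3 did, at 0.225 CPM in Epi-NMP, 0.267 in Epi-CE-T, 0.665 in Epi-CE and 0.908 in ES-NMP. It had only 5 to 65 UMIs per library, and some neighbouring intervals overlapped. Pou2f1, a broadly expressed octamer factor gene, was at 29.1 CPM in Epi-NMP, 28.2 in Epi-CE-T, 24.9 in Epi-CE and 22.9 in ES-NMP, within 1.5-fold in every comparison. Pou3f2, the neural relative of Pou3f1, was at 2.87, 1.18, 0.0170 and 0.866 CPM. On 1 UMI in Epi-CE its level was above that of Epi-CE by 169-fold in Epi-NMP (29.2 to 6764) and by 69.1-fold in Epi-CE-T (11.9 to 2780), the opposite direction to Pou3f1 in both. Pou6f1 was 3.46-fold higher in Epi-CE than in ES-NMP. Of the 13 POU family genes listed, Epi-CE over ES-NMP had 1 higher and 5 lower of 10 measured, against 21.1% and 16.2% of all genes. Epi-NMP over ES-NMP had 1 and 3 of 9, against 16% and 18.4%. Epi-NMP over Epi-CE had 2 and 1 of 7 (Pou4f1 being the other higher gene, 2.64-fold), against 14.9% and 22.7%. Epi-CE-T over Epi-CE had 1 and 4 of 8, against 18.1% and 13.1%. With so few genes measured, nothing is read from these counts about the family.

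The other Pim kinase genes also differed from Pim2. Pim1 was at 75.4 CPM in Epi-NMP, 14.5 in Epi-CE-T, 53.0 in Epi-CE and 48.4 in ES-NMP. It was 1.56-fold higher in Epi-NMP than in ES-NMP, where Pim2 was 20.1-fold lower, and 3.66-fold lower in Epi-CE-T than in Epi-CE. Pim3 stayed between 25.1 and 31.0 CPM in all 4 libraries.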
